A study of Homo sapiens with 21 samples.

Results

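OLFML3, MGP, GABBR2 and CBS are 4 of the 20111 genes listed for PC-9 cells, chosen by their measured values in untreated cells as genes that fell most from EGFR-high to EGFR-low cells. The question here is whether the same loss was seen when sorted cells of the same names were kept in DMSO or in the histone deacetylase (HDAC) inhibitor vorinostat. OLFML3, MGP and GABBR2 were again lower in EGFR-low cells of both treatments. CBS was not, as its level was higher in every EGFR-low library than in any EGFR-high library of the same treatment. The CBS difference did not pass the test in DMSO, and it passed in vorinostat only while certain single libraries were kept. Over all genes tested, 20.7% passed as lower and 31.1% as higher in DMSO EGFR-low cells, and 22.8% and 36.2% in vorinostat. None of the 4 genes passed the test between vorinostat and DMSO, where 0.0% of the 12236 genes tested passed in either sorted population.

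PC-9 is a lung adenocarcinoma cell line with an activating in-frame deletion in EGFR, and all groups share this background. EGFR-low and EGFR-high cells had been obtained from the parental line by 6 rounds of sorting on EGFR surface staining. The untreated experiment holds parental, EGFR-high and EGFR-low cells harvested 24 h after seeding, and the second experiment holds EGFR-high and EGFR-low cells given DMSO or 1 µM vorinostat (labelled SAHA) for 72 h, with 3 replicates in each of the 7 groups and polyadenylated RNA sequenced from all 21 libraries. Each sorted population is a line derived from 1 cell line, and the labels do not say whether the replicates came from separate sorts, so p-values measure the spread between these libraries only. The genotype label named the deletion delE746-A750 in the first sample, and the number of its last residue rose by 1 from sample to sample.

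The 4 genes do not form one pathway. OLFML3 encodes a secreted glycoprotein of the olfactomedin family that is deposited in the extracellular matrix. MGP, matrix Gla protein, is a secreted protein that needs vitamin K-dependent carboxylation, inhibits calcification and binds bone morphogenetic proteins (BMPs). GABBR2 is the subunit of the metabotropic GABA-B receptor that couples to G proteins and works together with GABBR1, which binds GABA. CBS, cystathionine beta-synthase, joins homocysteine and serine in the first step of transsulfuration, the route from methionine to cysteine that CTH completes.

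On GRCh38, GENCODE places OLFML3 at chr1:113979391-114035572 on the plus strand, and MGP at chr12:14881181-14885926, GABBR2 at chr9:98288082-98709197 and CBS at chr21:43053191-43076943, all on the minus strand. The values themselves were made on hg19. RefSeq promoter sequences (GRCh38.p14) were matched for 3 of the 4 genes, with 5 start sites in all. The 250 bases before a start follow for OLFML3 and GABBR2, which fell together, and for the outermost of the 3 CBS starts, because they differ widely in their content of CpG dinucleotides, which are in capitals. These RefSeq starts lie inside the GENCODE bounds given above. The GABBR2 and CBS windows are therefore wholly within those bounds, and the OLFML3 window is partly within them.

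OLFML3, chr1:113979224-113979473, plus strand: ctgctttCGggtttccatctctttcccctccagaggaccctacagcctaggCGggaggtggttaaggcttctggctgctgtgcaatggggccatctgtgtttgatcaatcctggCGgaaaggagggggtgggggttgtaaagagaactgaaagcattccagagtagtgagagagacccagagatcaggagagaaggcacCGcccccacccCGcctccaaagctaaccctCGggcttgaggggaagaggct
GABBR2, chr9:98708936-98709185, minus strand: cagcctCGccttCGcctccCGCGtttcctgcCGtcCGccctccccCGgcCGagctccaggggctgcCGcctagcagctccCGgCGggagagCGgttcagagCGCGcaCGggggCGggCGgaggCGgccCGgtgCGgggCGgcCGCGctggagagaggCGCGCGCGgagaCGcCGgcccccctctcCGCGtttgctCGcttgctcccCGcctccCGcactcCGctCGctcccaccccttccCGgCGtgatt
CBS, chr21:43076378-43076627, minus strand: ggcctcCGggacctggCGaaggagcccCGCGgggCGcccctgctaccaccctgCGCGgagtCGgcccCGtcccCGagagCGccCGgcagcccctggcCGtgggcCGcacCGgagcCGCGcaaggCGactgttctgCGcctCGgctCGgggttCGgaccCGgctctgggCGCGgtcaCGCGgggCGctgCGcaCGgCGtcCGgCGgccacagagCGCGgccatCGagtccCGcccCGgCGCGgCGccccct

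The OLFML3 window held 6 CpGs, below the median of 11 over 35116 RefSeq promoters of the same length, and 38.1% of these held fewer. The GABBR2 window held 38 CpGs and the outermost CBS window 41, more than in 96.7% and 98.3% of promoters. The other CBS starts, not printed, held 24 and 3 CpGs (76.3% and 22.9% of promoters held fewer), the first more and the second fewer than OLFML3. The GC box GGGCGG was found on either strand 1 time in OLFML3, 4 times in GABBR2 and 1, 4 and 0 times at the 3 CBS starts, and was present in 42.6% of promoters. The letters GGAATG, the core of sites bound by TEAD factors, occurred 1 time, in OLFML3, and are present in 11.9% of promoters. These matches are descriptions of the sequence. OLFML3 and GABBR2, both chosen for their fall in untreated cells, had promoter windows of very different CpG content. Whether this content bears on their RNA levels was not tested.

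Levels are given as FPKM, fragments scaled to both the length of a transcript and the size of a library, in the order of replicates 1, 2 and 3. Their sum per library ran from 467897 to 592942 among untreated and from 511011 to 582866 among treated cells. EGFR itself averaged 49.1 FPKM in untreated EGFR-low and 224 in EGFR-high cells, 26.8 and 115 in DMSO, and 18.0 and 168 in vorinostat, with no overlap in any of the 3 pairs. All 8 epithelial markers (EPCAM, CDH1, keratins and claudins) reached 1 FPKM in every group. The sum of these markers did not overlap between the sorted populations and was the lower one in EGFR-low cells, at 1950 to 3190 against 3260 to 4180 FPKM untreated, 2060 to 2270 against 2990 to 3570 in DMSO and 1940 to 2190 against 3040 to 3990 in vorinostat. Of the fibroblast markers, 7 of 8 fibroblast markers stayed under 1 FPKM in every library. Of the immune markers CD68 and of the endothelial markers CDH5 reached 1 FPKM in every group, and CD14 and KDR did so in treated EGFR-low cells. The 5 neuronal markers summed to 34.8 to 42.6 FPKM in DMSO EGFR-low and 36.7 to 42.9 in vorinostat EGFR-low cells, with TUBB3, SYT1 and SNAP25 reaching 1 FPKM, against 4.61 to 18.6 in the EGFR-high cells of that experiment. In untreated EGFR-low and EGFR-high cells the same sum was 4.97 to 11.6 FPKM, with RBFOX3 and STMN2 under 1 FPKM in all 21 libraries. Whether these markers have a part in the results below was not tested.

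In untreated cells, the EGFR-high libraries held 227, 267 and 368 FPKM of OLFML3, the parental 114, 113 and 94.0 and the EGFR-low 1.41, 0.705 and 1.66. MGP stood at 59.7, 123 and 49.9 FPKM in EGFR-high, at 22.1, 37.5 and 18.3 in parental and at 0.272, 1.18 and 0.521 in EGFR-low cells. Both genes of secreted matrix proteins were thus abundant in the parental line and close to absent after sorting for low EGFR. These are the values that chose the genes, and no test is given for them.

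GABBR2 was less abundant, at 11.7, 7.62 and 13.5 FPKM in EGFR-high, 4.15, 1.69 and 5.92 in parental and 0.127, 0.0421 and 0.0880 in EGFR-low cells. CBS stood at 12.8, 10.9 and 15.5 FPKM in EGFR-high, 5.33, 6.67 and 3.95 in parental and 0.378, 0.260 and 0.306 in EGFR-low cells. Neither receptor subunit nor enzyme reached 1 FPKM in any untreated EGFR-low library. Among EGFR-high cells OLFML3 was the most abundant of the 4 and GABBR2 the least, although the ranges of GABBR2 and CBS overlapped.

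All 4 genes had the same order of groups, with the parental line between the sorted cells and no overlap between any pair of groups. The gap between EGFR-high and EGFR-low cells was set by the choice of the genes, and the share of all genes with this order is not given here. Parental cells held 37.3% of the EGFR-high mean for OLFML3, 33.5% for MGP, 35.8% for GABBR2 and 40.6% for CBS. EGFR-low cells held 0.439%, 0.849%, 0.782% and 2.40% of it. EGFR itself was different, as its parental mean of 208 FPKM was within the range of the EGFR-high libraries. In such bulk RNA, fewer cells that express a gene and less RNA per cell cannot be told apart.

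The difference from EGFR-high to EGFR-low cells was -6.99 for OLFML3, -5.49 for MGP, -3.43 for GABBR2 and -3.41 for CBS on the log2(FPKM + 1) scale, which shrinks the change of genes near or under 1 FPKM. They ranked 1, 2, 6 and 7 by this fall among 11305 genes tested. L1CAM, at rank 3 with -4.56, and BARX2, at rank 5 with -3.53, fell more than GABBR2 but were not chosen, and HSD3B1, at rank 8 with -3.37, lay just outside. In this comparison 2.19% of genes tested were called lower and 1.62% higher in EGFR-low cells (adjusted p under 0.05).

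**Figure D1:**
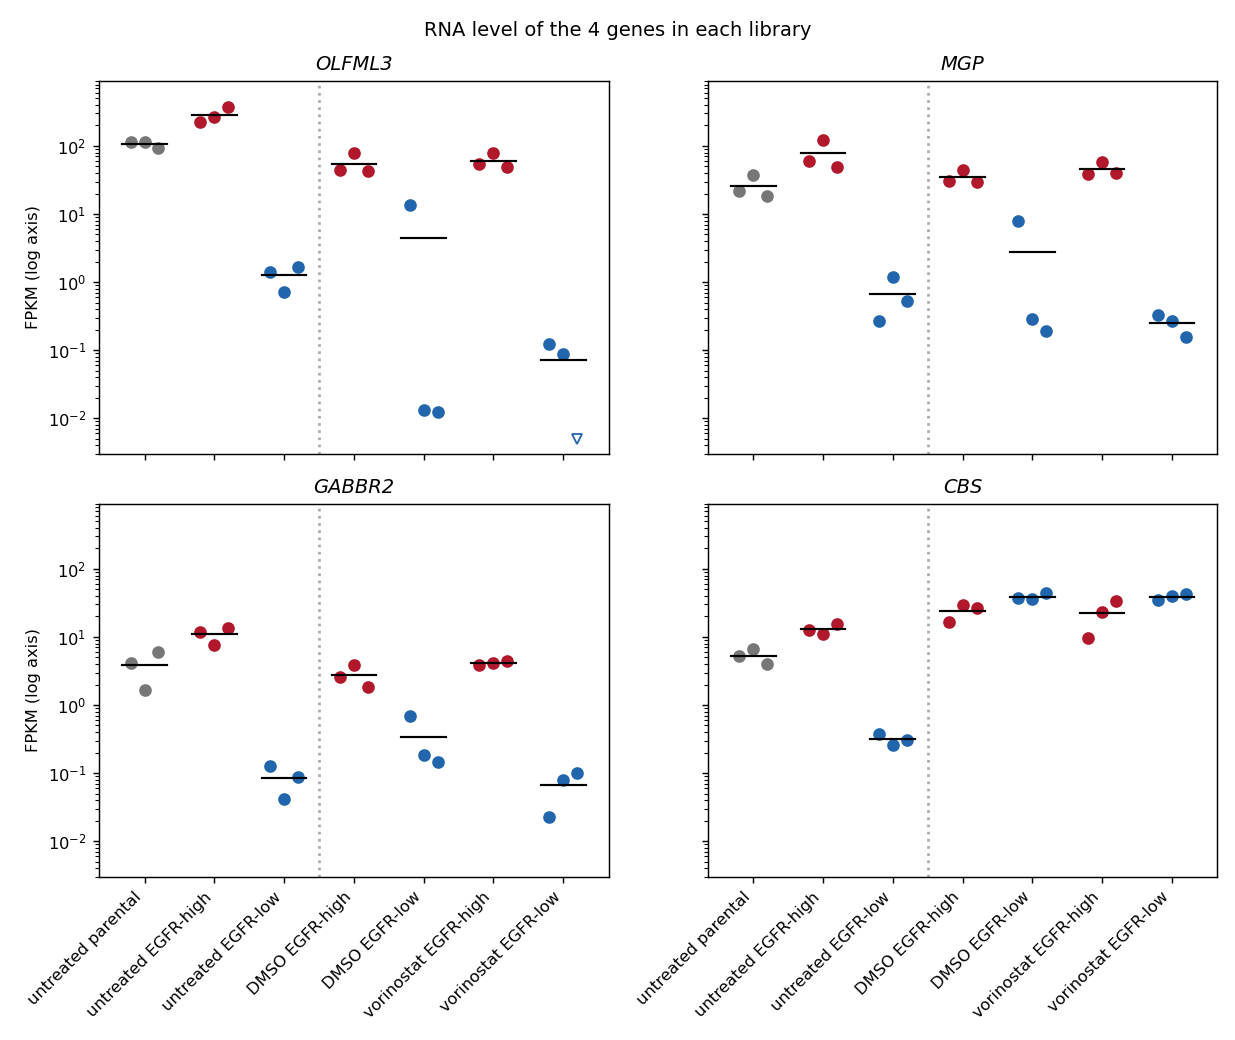
FPKM on a log axis of OLFML3, MGP, GABBR2 and CBS in each of the 21 libraries (points, replicates 1 to 3 from left to right) with the mean of each group (bar), and an open triangle at the lower edge for the 1 library listed at 0. OLFML3, MGP and GABBR2 were low in every EGFR-low group except for 1 DMSO library, while CBS was low in untreated EGFR-low cells and at 34.7 to 44.2 FPKM in those of the vorinostat experiment.

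In DMSO, OLFML3 stood at 43.9, 78.5 and 43.1 FPKM in EGFR-high and at 13.4, 0.0131 and 0.0125 in EGFR-low cells. The EGFR-low libraries were all lower, but replicate 1 was far from the other pair. The mean difference was -4.46 on the log2(FPKM + 1) scale (SE 0.783, limma adjusted p = 0.000808). In vorinostat, OLFML3 stood at 54.7, 78.0 and 48.5 FPKM in EGFR-high and at 0.124, 0.0870 and 0 in EGFR-low cells, a difference of -5.81 (SE 0.783, limma adjusted p = 9.08e-05). The transcript was near absent in each of these 3 EGFR-low libraries.

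MGP followed OLFML3 closely. In DMSO it stood at 30.1, 43.8 and 29.5 FPKM in EGFR-high and at 7.85, 0.286 and 0.190 in EGFR-low cells, with replicate 1 again high. The difference was -3.87 (SE 0.586, limma adjusted p = 0.000409). In vorinostat MGP stood at 38.3, 57.7 and 40.0 FPKM in EGFR-high and at 0.331, 0.265 and 0.155 in EGFR-low cells, a difference of -5.19 (SE 0.586, limma adjusted p = 4.53e-05).

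GABBR2 was a low transcript in these cells. It stood at 2.57, 3.82 and 1.86 FPKM in DMSO EGFR-high and at 0.697, 0.181 and 0.146 in DMSO EGFR-low cells, a difference of -1.47 (SE 0.202, limma adjusted p = 0.000329). In vorinostat it stood at 3.81, 4.19 and 4.47 FPKM in EGFR-high and at 0.0229, 0.0785 and 0.101 in EGFR-low cells, a difference of -2.27 (SE 0.202, limma adjusted p = 3.82e-05). The groups did not overlap in either treatment.

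CBS went the other way. In DMSO it stood at 16.7, 29.5 and 26.5 FPKM in EGFR-high and at 37.5, 35.8 and 44.2 in EGFR-low cells. All EGFR-low libraries were above all EGFR-high libraries, and the difference of 0.70 (SE 0.349, 95% interval -0.06 to 1.46) did not pass the threshold (limma adjusted p = 0.113). It did pass in a fit of the compared groups alone (limma adjusted p = 0.0253) and without vorinostat EGFR-high replicate 1 (limma adjusted p = 0.0137), with the same difference. In vorinostat CBS stood at 9.59, 23.1 and 33.9 FPKM in EGFR-high and at 34.7, 40.1 and 43.0 in EGFR-low cells. The lowest EGFR-low library lay just above the highest EGFR-high library, and the difference of 0.95 (SE 0.349) passed the threshold (limma adjusted p = 0.0343). That call rested on vorinostat EGFR-high replicate 1 at 9.59 FPKM, without which the difference was 0.47 (limma adjusted p = 0.102), and it was also lost without EGFR-low replicate 2 (adjusted p = 0.0780) or 3 (adjusted p = 0.0916). The 41.6-fold lower mean of CBS in untreated EGFR-low cells had no counterpart in either treatment. A second copy named CBSL, near-identical to CBS in some assemblies, has no row in either set of values, so how its reads were assigned is unknown.

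**Figure D2:**
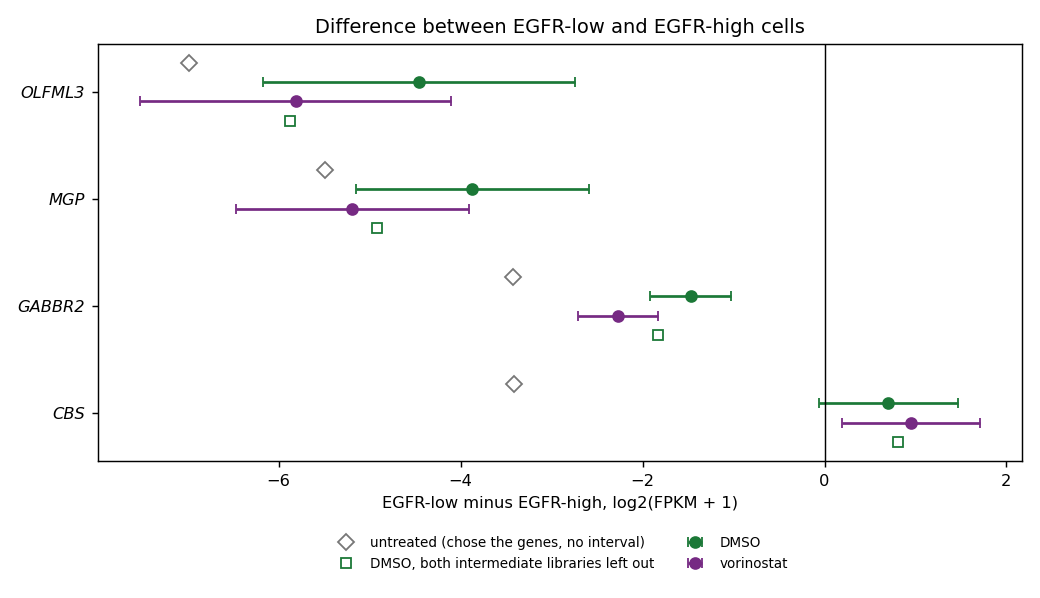
Difference of EGFR-low minus EGFR-high cells in mean log2(FPKM + 1) for each gene, with 95% intervals for DMSO and vorinostat (filled circles), the untreated value that chose the genes (open diamonds, no interval) and DMSO without its 2 intermediate libraries (open squares). OLFML3, MGP and GABBR2 lie below 0 throughout, and CBS lies at -3.41 in untreated cells and at 0.70 and 0.95 in the treated cells.

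Of the 4 genes, 3 were therefore called lower in EGFR-low cells in DMSO and the same 3 in vorinostat, and CBS was called higher in vorinostat. The background is wide: 20.7% of the 12236 genes tested were called lower and 31.1% higher in DMSO EGFR-low cells, and 22.8% lower and 36.2% higher in vorinostat EGFR-low cells. OLFML3, MGP and GABBR2 entered this test through libraries in which they were high, as they reached 1 FPKM in the EGFR-high libraries and, for OLFML3 and MGP, in DMSO EGFR-low replicate 1, so that a gene of this kind had to differ to be tested. CBS reached 1 FPKM in all 12 libraries. With 3 libraries against 3, an exact two-sided permutation test cannot give less than 0.1, and it gave 0.1 for all 4 genes in both treatments. The median of all genes lay at 0.12 in DMSO and 0.16 in vorinostat (log2), and at 0.01 in both after median-of-ratios scaling, which turned the calls from 3807 higher and 2527 lower to 3219 and 3183 in DMSO and from 4427 and 2795 to 3656 and 3584 in vorinostat without changing the direction or the call of any of the 4 genes.

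In DMSO, 1 library of EGFR-low and 1 of EGFR-high cells held intermediate levels over many genes that differ between the populations. On a linear FPKM scale from the mean of DMSO EGFR-low replicates 2 and 3 (0%) to the mean of DMSO EGFR-high replicates 1 and 2 (100%), DMSO EGFR-low replicate 1 lay at 21.8% for OLFML3, 20.7% for MGP, 17.6% for GABBR2 and 14.8% for CBS. Over 294 other genes that were at least 10 times lower in those EGFR-low references it lay at a median of 21.7% (quartiles 18.7 to 24.2%), and over 267 genes at least 10 times higher in them at 31.0%. EGFR lay at 24.9%. For CBS its level of 37.5 FPKM was between those of both EGFR-low references, so CBS was not intermediate there. DMSO EGFR-high replicate 3 lay at 70.4% for OLFML3, 79.6% for MGP, 55.9% for GABBR2 and 80.2% for CBS, and at medians of 73.3% and 75% over the same 2 groups of other genes. In that library OLFML3 and MGP were close to EGFR-high replicate 1 (43.1 against 43.9 and 29.5 against 30.1 FPKM), CBS lay between its EGFR-high references, and EGFR lay at 91.2%, also between them. Of the 4 genes, GABBR2 alone fell clearly below both references there, at 1.86 against 2.57 and 3.82 FPKM. These reference libraries were chosen after their values had been seen, and the cause of the intermediate levels was not tested.

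Without both libraries, the DMSO difference was -5.88 for OLFML3, -4.92 for MGP, -1.83 for GABBR2 and 0.81 for CBS, and OLFML3, MGP and GABBR2 were called (limma adjusted p = 2.7e-07, 2.77e-07 and 1.73e-05) while CBS was not (adjusted p = 0.171). The vorinostat call of CBS was lost as well, at adjusted p = 0.0519. Without EGFR-low replicate 1, the DMSO EGFR-low mean fell from 8.09% to 0.0232% of the EGFR-high mean for OLFML3, from 8.06% to 0.690% for MGP and from 12.4% to 5.96% for GABBR2. In vorinostat these shares were 0.116%, 0.552% and 1.62%. For CBS the EGFR-low mean was 161% of the EGFR-high mean in DMSO, 165% without that library and 177% in vorinostat.

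Vorinostat against DMSO left the 4 genes without a call. In EGFR-low cells the differences were -1.20 for OLFML3, -0.93 for MGP, -0.31 for GABBR2 and 0.00 for CBS (limma adjusted p = 0.9999 for each). Those of OLFML3 and MGP came from DMSO EGFR-low replicate 1, as without it they were 0.08 and 0.01. In EGFR-high cells the differences were 0.16 for OLFML3 (95% interval -1.56 to 1.87), 0.39 for MGP (-0.90 to 1.67), 0.49 for GABBR2 (0.05 to 0.93) and -0.25 for CBS (-1.01 to 0.52), with limma adjusted p between 0.9404 and 0.9828. The interval of GABBR2 was the only one of the 4 that did not hold 0, and its exact two-sided permutation p was 0.2. The share of genes called was 0.0% in either sorted population and for the difference between the 2 responses, by limma. At an unadjusted limma p under 0.05 there were 115 of 12236 genes (0.94%) for EGFR-low cells, 409 (3.34%) for EGFR-high cells and 215 (1.76%) for the difference of responses. Each share is below the 0.05 that such a threshold passes on average when no gene differs. A missing call here does not show that a gene was unchanged.

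The gap between EGFR-low and EGFR-high cells differed between vorinostat and DMSO by -1.35 for OLFML3, -1.32 for MGP, -0.80 for GABBR2 and 0.25 for CBS, none of them called (limma adjusted p = 0.9993 for each). For GABBR2 the unadjusted p was 0.0168 and the 95% interval -1.42 to -0.17. Without both intermediate libraries its value was -0.44, and that of OLFML3 was 0.07. In vorinostat, OLFML3, MGP and GABBR2 did not exceed 0.331 FPKM in any EGFR-low library. For OLFML3 in EGFR-low cells the 95% interval of the difference ran from -2.91 to 0.52, and changes within it were not detectable at this spread.

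The 2 experiments were normalized separately and were not tested against each other. Side by side, DMSO EGFR-high cells held 19.2% of the mean FPKM of untreated EGFR-high cells for OLFML3, 44.5% for MGP, 25.1% for GABBR2 and 185% for CBS. The EGFR-low means were 1.26 FPKM untreated and 4.46 in DMSO for OLFML3, 0.659 and 2.78 for MGP, 0.0856 and 0.341 for GABBR2, and 0.315 and 39.1 for CBS. CBS thus differed most between the experiments in EGFR-low cells. Cells labelled EGFR-low differed widely between the experiments at other genes too, as 267 genes were at least 10 times higher in the DMSO EGFR-low than in the DMSO EGFR-high references and 51 of them passed the filter on low values in the untreated experiment. The experiments also differ in time in culture and in the solvent, which cannot be told apart here.

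The genes whose levels were most alike to each of the 4 over the 12 libraries of the vorinostat experiment were then read in the untreated cells. KCNK1, CSAG1 and PODXL followed OLFML3 (Pearson r = 0.998 for each), NCCRP1, KCNK1 and OLFML3 itself followed MGP (r = 0.998 to 0.999), and IL1RAPL2, DAB2 and MAG followed GABBR2 (r = 0.993 to 0.998). These points share the library and the large gap between the sorted cells, and the correlations are a description. KCNK1, a potassium channel, averaged 23.7 FPKM in DMSO EGFR-high and 27.3 in vorinostat EGFR-high cells, and 2.15 and 0.0819 in the EGFR-low cells. In untreated cells it averaged 20.6 FPKM in EGFR-high and 19.3 in EGFR-low cells. CSAG1, a cancer-testis antigen, averaged 0.378 FPKM in vorinostat EGFR-low cells and 91.7 in untreated EGFR-low cells, and PODXL, a sialomucin, 3.04 and 71.4.

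KCNK1, CSAG1 and PODXL, most like OLFML3 in the treated libraries, thus did not share the untreated loss for which OLFML3 was chosen. NCCRP1 was lower in untreated EGFR-low cells too, at 3.44 against 13.4 FPKM. For CBS the most alike genes were KLHL12, DIS3L and TIAL1 (r = 0.972 to 0.977), broadly expressed genes at 6.56 to 58.0 FPKM in all groups, none of which showed a loss in untreated EGFR-low cells like that of CBS. Of the 294 genes at least 10 times lower in the treated EGFR-low references, 50 (17.0%) were called lower in untreated EGFR-low cells and 16 (5.44%) higher. Over all genes tested in untreated cells these shares were 2.19% and 1.62%. Of the 267 genes at least 10 times higher in those references, 51 were tested in untreated cells, and 13.7% of these were lower and 21.6% higher. Read from the other side, of 240 tested genes called lower in untreated EGFR-low cells, 137 (57.1%) were called lower and 48 (20%) higher in DMSO, and 145 (60.4%) and 52 (21.7%) in vorinostat, where over all genes tested 20.7% were lower and 31.1% higher in DMSO and 22.8% and 36.2% in vorinostat. Of 149 tested genes called higher in untreated EGFR-low cells, 35.6% were lower and 36.9% higher in DMSO, and 35.6% and 38.9% in vorinostat. OLFML3, MGP and GABBR2 are among the genes lower in both treatments, and CBS is among those higher in vorinostat.

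**Figure D3:**
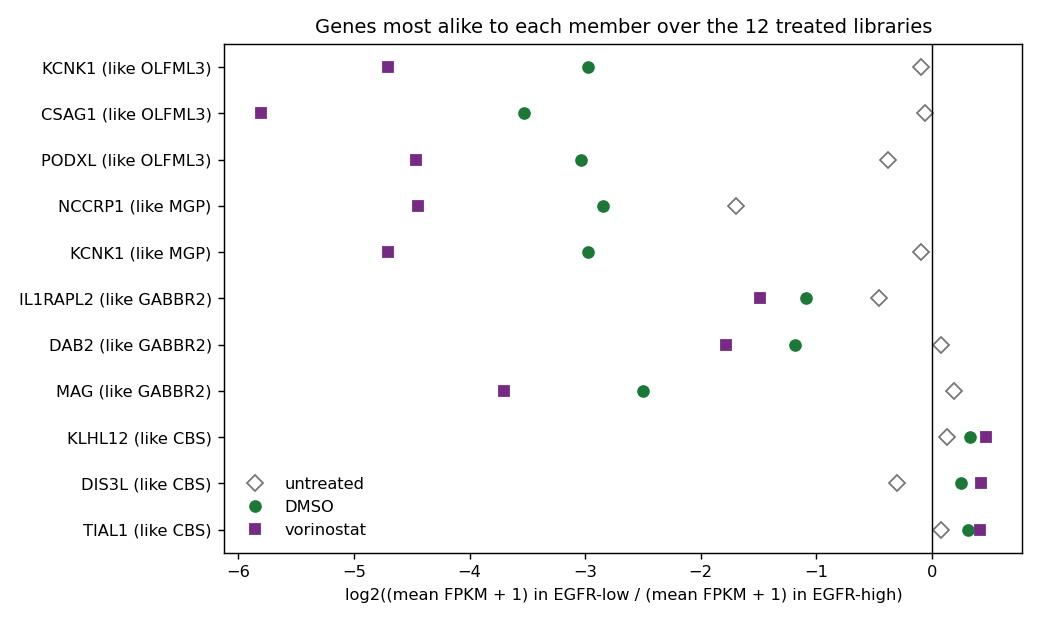
Ratio of mean FPKM + 1 in EGFR-low to EGFR-high cells (log2) for the genes most alike to each of the 4 over 12 libraries, in untreated (open diamonds), DMSO (circles) and vorinostat cells (squares). OLFML3 itself, alike to MGP, is not drawn. Of the genes drawn for OLFML3, MGP and GABBR2, all lie below 0 in treated cells, and in untreated cells NCCRP1 (3.44 against 13.4 FPKM) lies lowest and KCNK1 (19.3 against 20.6 FPKM) close to 0.

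The gene lists that follow are read against all genes tested, of which 31.1% were called higher and 20.7% lower in DMSO EGFR-low cells (median difference 0.12) and 36.2% and 22.8% in vorinostat (median 0.16). With lists this small, the counts differ from these shares by few genes. In untreated cells far fewer genes were called (2.19% lower and 1.62% higher), and a missing call there does not show that a gene was unchanged.

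Among other genes with an olfactomedin domain, 5 of 12 were tested in the vorinostat experiment, and 3 were called higher and 1 lower in DMSO EGFR-low cells, with a median difference of 0.82. In vorinostat 3 were higher and 2 lower, with LPHN1 (-0.86) added to the lower genes, and the median was 0.77. OLFM1, secreted and best known from neurons, was higher in EGFR-low cells by 2.83 in DMSO and 3.56 in vorinostat, and OLFML2A by 1.55 and 1.66. LPHN2, an adhesion receptor with an olfactomedin domain, was lower (-2.87 in DMSO and -3.87 in vorinostat). In untreated cells OLFM1 was listed at 0 in all EGFR-low and EGFR-high libraries, LPHN2 averaged 20.7 FPKM in EGFR-low and 17.6 in EGFR-high cells, and none of the 2 genes tested was called. OLFML1, another OLFML gene, was at most at 0.0374 FPKM in both sorted groups of every condition.

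Of the vitamin K-dependent Gla proteins and their carboxylation enzymes, 8 of 16 were tested, with 3 higher and 3 lower in DMSO EGFR-low cells and a median difference of 0.28. PROS1, the anticoagulant protein S, stood at 20.6, 29.3 and 33.6 FPKM in DMSO EGFR-low and at 0.493, 0.402 and 6.71 in EGFR-high cells (difference 3.49), where replicate 3 was again the intermediate library. GAS6, a ligand of TAM receptor kinases, and PRRG1, a membrane Gla protein, were lower (-2.38 and -1.31). In vorinostat 2 were higher and 3 lower with a median of 0.27, PROS1 at 4.10, GAS6 at -2.83 and PRRG1 at -1.57. GGCX, the carboxylase that modifies MGP, averaged 11.3 FPKM in DMSO EGFR-low and 8.57 in EGFR-high cells and was not called. In untreated cells 0 of 7 tested were called by limma.

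BMP ligands and mineralization genes, to which MGP is tied, gave 2 higher and 3 lower of 6 tested in DMSO and the same counts in vorinostat, with medians of -0.55 and -0.75. SPP1, the mineral-binding protein osteopontin, stood at 13.3, 1.19 and 0.549 FPKM in DMSO EGFR-low and at 85.6, 50.2 and 43.2 in EGFR-high cells, a difference of -4.0. In untreated cells it had the opposite order, with 417, 653 and 305 FPKM in EGFR-low against 90.0, 130 and 72.0 in EGFR-high cells, a difference of 2.19. In EGFR-low cells BMP4 was lower (-2.72 in DMSO and -3.19 in vorinostat), while BMP2 was higher by 1.12 and 1.86. In untreated cells 2 of 5 tested were called, SPP1 and ENPP1 (1.05), both higher. SPP1, like CBS, had opposite orders of the sorted cells in the 2 experiments.

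For GABA receptors and the G proteins they use, 11 of 25 were tested, and 2 were higher and 5 lower in DMSO EGFR-low cells, with a median of -0.73. GABRA3, a chloride channel subunit, was lower (-3.18 in DMSO and -3.87 in vorinostat), as was GABRP (-1.04 and -1.31). GABBR1, the partner of GABBR2, averaged 0.943 FPKM in DMSO EGFR-low and 2.30 in EGFR-high cells, and it fell by 0.93 in vorinostat, where 2 were higher and 6 lower with a median of -0.93. In untreated cells GABBR1 averaged 1.17 and 0.895 FPKM, GABRA3 7.91 and 6.67, and 0 of 9 tested were called by limma. The neuronal marker sum given above was higher in treated EGFR-low cells, opposite to GABRA3, GABRP and GABBR1.

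For the methionine cycle and transsulfuration, 21 of 26 were tested, with 3 higher and 5 lower in DMSO EGFR-low cells and 4 higher and 5 lower in vorinostat, with medians of -0.03 and 0.10. CTH, the enzyme after CBS, averaged 14.2 ± 3.64 FPKM (SD, n = 3) in DMSO EGFR-low and 22.3 ± 15.8 in EGFR-high cells and was not called. GCLM and GCLC, the subunits of the enzyme that uses cysteine for glutathione, were lower in DMSO (-2.07 and -1.22). In untreated cells CTH averaged 7.56 FPKM in EGFR-low and 3.92 in EGFR-high cells without a call, and SLC7A11, the cystine importer, was called higher by 1.74, the single call among 20 tested. None of the other genes of the route tested was called lower in untreated EGFR-low cells.

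The 3 nearest protein-coding genes on each side were also read, against the same shares over all genes tested. These were 20.7% lower and 31.1% higher in DMSO EGFR-low cells, and 22.8% and 36.2% in vorinostat. In untreated cells no tested neighbor of any of the 4 was called by limma, and their differences ran from -0.46 to 0.65. Around OLFML3, 5 of 6 were tested, and DCLRE1B (-0.76), TRIM33 (-0.46) and BCAS2 (-0.52) were lower in DMSO, and all 5 were lower in vorinostat. Around MGP, ERP27 was higher and ARHGDIB lower in DMSO (1.16 and -1.18) and in vorinostat (1.27 and -1.17). Around GABBR2, CORO2A (-0.85) and TBC1D2 (-0.75) were lower in DMSO, and in vorinostat CORO2A (-1.80), TBC1D2 (-1.02) and ANKS6 (-0.45) were lower and NANS higher (0.35). Around CBS, where 4 of 6 were found and 3 tested, none was called in DMSO and NDUFV3 was higher (0.47) in vorinostat. No tested neighbor in untreated cells approached the fall of the gene beside it. Because the 4 genes were chosen for the size of that fall, this was largely set by the choice.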

How the data were processed

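Polyadenylated RNA was read from 21 PC-9 libraries, 9 untreated and 12 treated, with 3 per group. STAR 2.5.1b, Cufflinks 2.2.1, DESeq2 1.10.1 and hg19 are named in the submitters' processing notes. The deposited values were read as FPKM, made by the authors with Cufflinks. The unit is an inference from their size, against a naming as gene counts. Fragment numbers are not given, so no counting interval is stated. Ratios of low values between libraries placed the deepest at 2.10 times the shallowest untreated library and at 1.67 times among treated libraries.

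A gene was fitted if 3 or more libraries of an experiment reached 1 FPKM (11305 untreated and 12236 treated genes), on log2(FPKM + 1) with limma 3.58.1 in R 4.3.3 (trend method, 1 mean per group), with Benjamini-Hochberg adjustment over all genes of a comparison. The threshold was 0.05. An exact permutation test was added for the 4 genes. The fit was first tested on simulated data with 200 changed genes.

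The genes and lists were chosen with earlier results of these data known. Named genes were the 4 genes, EGFR, up to 3 called list genes with the largest change, the partners GABBR1, CTH, GGCX and OLFML1, the 3 nearest genes per side, the 3 most alike genes, and the genes next in rank. Some genes that this rule names are not reported here. Same-numbered libraries were checked for pairing, by whether the deviations from group means correlated above 0.1 in every pair. This held for the sorted populations in vorinostat (0.353, 0.351 and 0.163) and for the 2 treatments in EGFR-low cells (0.267, 0.302 and 0.329). It did not hold for the sorted populations in DMSO (0.251, -0.207 and 0.285). The main fits and the permutation tests took no account of pairing, which entered only through a replicate block as an alternative. Alternatives were pseudocounts of 0.1 and 5, no filter, a filter of 5 FPKM, median-of-ratios scaling, quantile normalization, the compared groups alone, a replicate block, no trend, and each library left out. Leaving out both intermediate DMSO libraries was added after seeing the data. Python 3.11.15, numpy 2.4.6, pandas 2.3.3 and matplotlib 3.10.9 were used.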

Additional observations from a re-analysis of the deposited data

Results flagged for a closer look

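Among OLFML3, MGP, GABBR2 and CBS, CBS alone had opposite orders of the sorted cells in untreated and in treated cells. All untreated EGFR-low libraries were below all EGFR-high libraries (-3.41), whereas all EGFR-low libraries were above all EGFR-high libraries in DMSO (0.701) and in vorinostat (0.951). The experiments were normalized separately, and the difference between them was not tested.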

How the results depend on the processing

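OLFML3, MGP and GABBR2 kept their direction and their call in both low against high comparisons under every alternative run, except that GABBR2 has no value under the filter of 5 FPKM. With all libraries the DMSO differences ranged from -6.58 to -2.91, -5.14 to -2.46 and -2.85 to -0.53. With one library left out in turn they ranged from -5.74 to -3.82, -4.82 to -3.37 and -1.65 to -1.27 in DMSO.

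CBS depended on the setting. In DMSO its difference of 0.701 was called with the compared groups alone (limma adjusted p = 0.0253) and with a replicate block (0.701, adjusted p = 0.0458), and the block changed no other call. In vorinostat 0.951 was not called without a filter (adjusted p = 0.0634), with the compared groups alone (0.0764) or without both intermediate DMSO libraries (0.0519). With the replicate block it was called in vorinostat (limma adjusted p = 0.0108). With one library left out, CBS ranged from 0.465 to 0.857 in DMSO, called without vorinostat EGFR-high replicate 1 (adjusted p = 0.0137), and from 0.466 to 1.33 in vorinostat. The causes were not tested.

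Vorinostat against DMSO in EGFR-low cells turned without both intermediate DMSO libraries for OLFML3 (0.078), MGP (0.0133) and CBS (-0.023), and so did the difference of responses for OLFML3 (0.0676). With one library left out, OLFML3 ranged from -1.83 to 0.078, MGP from -1.43 to 0.0133 and CBS from -0.062 to 0.0928 in EGFR-low cells, OLFML3 from -0.0395 to 0.436 and CBS from -0.621 to 0.24 in EGFR-high cells, and the CBS difference of responses from -0.235 to 0.625. No such value was called. Without a filter 1 gene was called in EGFR-low cells and 1 for the difference of responses. Untreated differences moved with the pseudocount, from -7.77 to -5.52 for OLFML3, -6.75 to -3.77 for MGP, -5.88 to -1.63 for GABBR2 and -4.99 to -1.76 for CBS. Values under 0.1 FPKM rest on few fragments, and ratios to them are imprecise.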
